A study of Mus musculus with 27 samples.

Results

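The genes described are 10 genes of acetyl-CoA supply besides that of ATP citrate lyase (ACLY), out of 21887 RefSeq coding genes with mm10 coordinates. Of these, Cs and Slc25a1 serve the citrate route, in which ACLY cleaves the citrate. Coordinates are those of mm10. The genes were chosen by name: Pdha1, Pdhb and Dlat for pyruvate, Cs and Slc25a1 for citrate, Acss1, Acss2 and Acss3 for acetate, Acat1 for ketone bodies and Crat for acetylcarnitine. The cells were mouse primary hepatocytes, cultured in normoxia or in hypoxia followed by reperfusion (HR) from 24 hours after their isolation. They came from hepatocyte Acly knockout mice (KO, labelled AclyKO in the samples and Alb-cre:Aclyf/f in the design, in which Cre under the albumin promoter removes the floxed part of Acly) or from wild-type mice (WT). CUT&RUN, in which an antibody directs DNA cutting to the sites that its target occupies, gave 8 peak lists with 1 library each: H3K27ac and H3K9ac, acetylated histone H3 as found at active genes, in KO HR, WT HR and WT normoxia, and anti-FLAG for ACLY in WT HR and WT normoxia. The sources used here do not say how FLAG-tagged ACLY came to be in WT cells, nor how many animals stand behind a library. The 3 IgG samples were not analysed here, and the 16 liver RNA libraries were not used because no table pairing their transcripts with genes was at hand.

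Acetyl-CoA is the donor of acetyl groups for histones and the starting unit of fatty acids and sterols. It is made inside mitochondria from pyruvate, fatty acids and ketone bodies and cannot cross the inner membrane itself. Citrate carries it out and is cleaved by ACLY, while acetate can be activated directly outside mitochondria and acetylcarnitine forms a further store.

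A peak was counted for a gene when it shared at least 1 base with the gene or with 1 kb on either side. Every list is 1 library, so no test was possible, and the read depth behind a list is not given in the files. The total signal that the authors give each peak served for ranks inside its own list and for nothing else. A strong peak here is one with a high total signal, in which height and width are not told apart. The lists differed in length and make: H3K27ac had 14418 peaks in KO HR, 8252 in WT HR and 5655 in WT normoxia, and the median peak was 3845, 7410 and 10340 bp wide. H3K9ac had 8837, 7593 and 6513 peaks in these conditions, and the median peak was 2961, 6400 and 7790 bp wide. Starts lay on a 10 bp grid for 100.0% of WT peaks but for 10.32% of KO HR H3K27ac and 10.04% of KO HR H3K9ac peaks, so the KO lists were produced differently from the WT lists, and a difference between KO and WT cells cannot be told apart from that. Of 9 hepatocyte marker genes with coordinates, 8 had a peak in each of the 6 acetylation lists (Alb, Apoa1 and Ttr among them). Of 8 macrophage markers only Cd68 did, of 6 endothelial markers Stab2 and Lyve1 had H3K27ac, and the 6 stellate cell markers had none. Of 5 cholangiocyte and 6 leukocyte markers, Sox9 and Cd79a had peaks, each in KO HR for both marks and in the WT lists for H3K9ac. Acly itself had a peak in all 6 acetylation lists. That does not test the deletion, since the sources used here do not give the deleted part.

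Most of the 10 genes were marked in hepatocytes. H3K27ac peaks stood at 8 of 10 in KO HR (against 37.9% of all coding genes), at 8 of 10 in WT HR (against 30.3%) and at 5 of 10 in WT normoxia (against 22.6%). Percentages set beside member counts are in the same way those of all coding genes. For H3K9ac the counts were 7 in KO HR (35.9% of coding genes), 8 in WT HR (36.4%) and 6 in WT normoxia (31.9%). Slc25a1, Cs and Pdhb had a peak in all 6 acetylation lists, as did 18.5% of coding genes, and Acss1 and Acss3 in none of them, as did 55.0% of coding genes. Of 39 further genes of acetyl-CoA metabolism, 30, 27 and 24 had H3K27ac in KO HR, WT HR and WT normoxia, and 29, 26 and 26 had H3K9ac. Neighbours among them, such as Hadha and Hadhb, could be counted by the same peak. With each mark cut to the length of its shortest list (5655 strongest H3K27ac and 6513 strongest H3K9ac peaks), H3K27ac stood at 3 members in KO HR (20.0% of coding genes), 4 in WT HR (23.2%) and 5 in WT normoxia, and H3K9ac at 5 in KO HR (28.8%), 7 in WT HR (32.6%) and 6 in WT normoxia.

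The marks mostly came together. Both were present at 7 members in KO HR (31.7% of coding genes), 8 in WT HR (27.3%) and 4 in WT normoxia (20.0%). In WT normoxia Dlat and Crat had H3K9ac without H3K27ac (11.9% of coding genes), and Acss2 had H3K27ac without H3K9ac (2.59%). Acat1 had H3K27ac without H3K9ac in KO HR (6.25%), where 0 members had the reverse (4.18%). In WT HR 0 members had H3K9ac without H3K27ac (9.06%) and 0 H3K27ac without H3K9ac (2.99%). Neither mark was present at Acss1 and Acss3 in KO HR (57.9%) and in WT HR (60.6%), and at these and Pdha1 in WT normoxia (65.5%).

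Between KO HR and WT HR the full lists differed at 1 member. No member had H3K27ac in KO HR and none in WT HR (8.31% of coding genes) or the reverse (0.672%), and none had H3K9ac in KO HR and not in WT HR (3.46%). Acat1 alone had H3K9ac in WT HR and not in KO HR (3.97%), and by peaks within 1 kb of a known start site, which leaves Acat1 out, 0 of 7 members did (3.6%). In lists of equal length no member had a peak in KO HR and none in WT HR, for H3K27ac (0.982%) or H3K9ac (2.01%). Slc25a1 then had H3K27ac in WT HR and not in KO HR (4.25%), and Acss2 and Pdha1 had H3K9ac in WT HR and not in KO HR (5.87%).

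**Figure D1:**
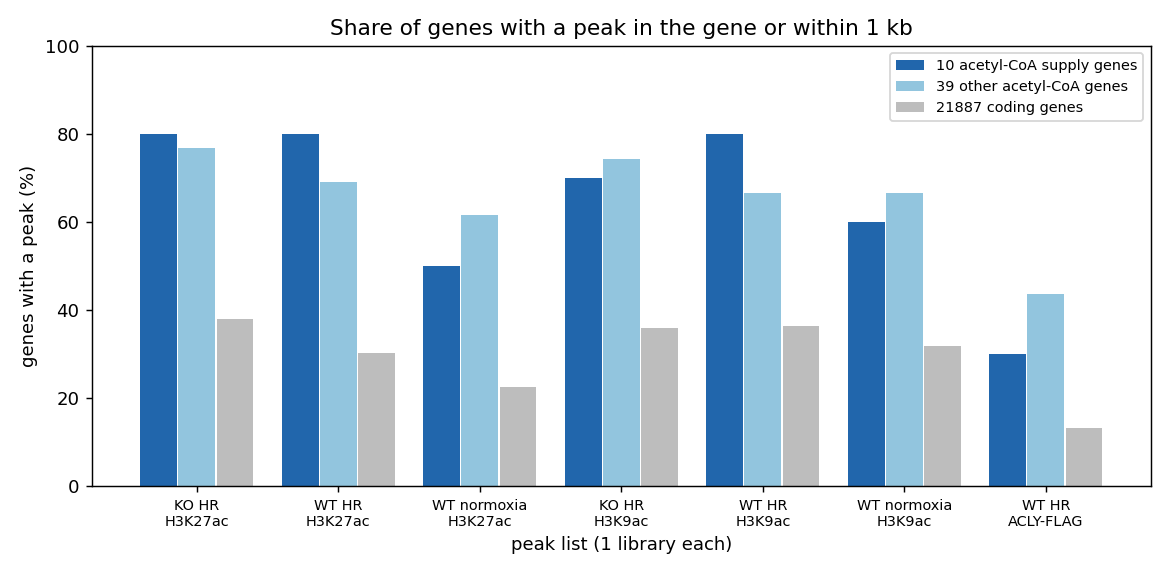
Percent of genes with a peak in the gene or within 1 kb (y axis) in each peak list (x axis, 1 library each), for the 10 acetyl-CoA supply genes, the 39 other acetyl-CoA genes and all 21887 coding genes. H3K27ac peaks stood at 8 of 10 genes in KO HR and in WT HR and at 5 in WT normoxia, and the share of the 10 genes was above that of all coding genes in each acetylation list.

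**Figure D2:**
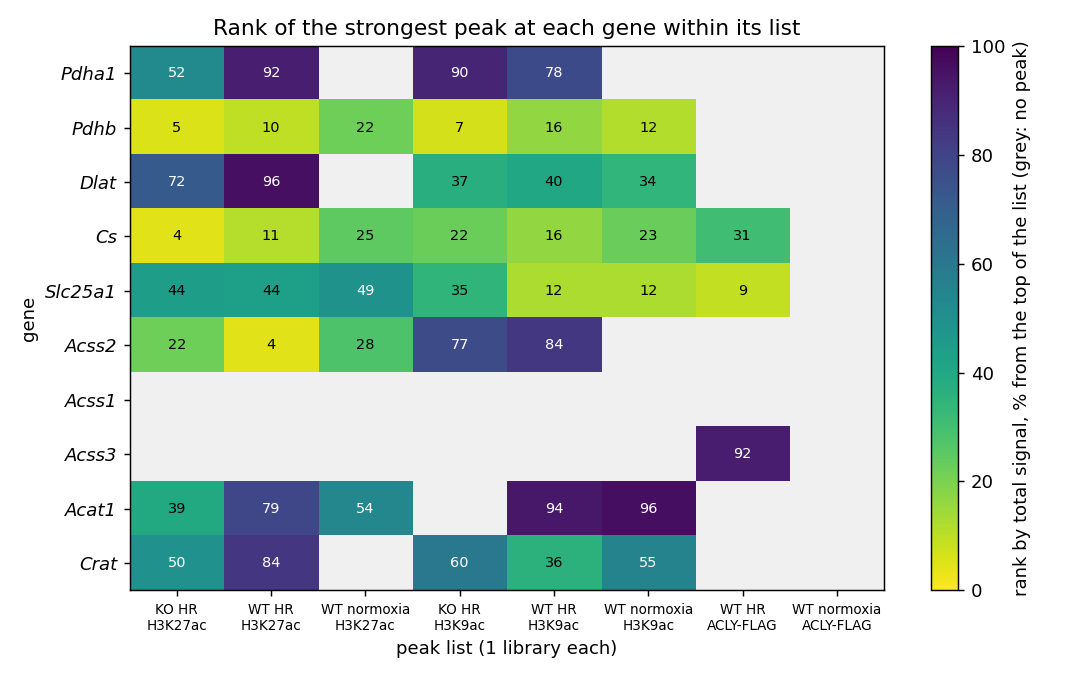
Rank by total signal of the strongest peak that reaches each gene, as percent from the top of its list (colour and number; low is strong), with grey where no peak was listed. Pdhb and Cs stood within 24.8% of the top of every acetylation list, Pdha1 and Dlat had no H3K27ac peak in WT normoxia, the Acss2 value in WT HR H3K27ac belongs to a peak with its maximum in Gss, and the Slc25a1 values in KO HR (44.0% and 34.6%) belong to peaks beyond the gene, those over it standing at 75.8% and 49.5%.

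Genes of the pyruvate route differed by condition in the full lists. The pyruvate dehydrogenase complex turns pyruvate into acetyl-CoA in mitochondria: Pdha1 and Pdhb encode the subunits of its first enzyme, Dlat the acetyltransferase at its core, Dld the dehydrogenase that restores the cofactor and Pdhx the protein that holds Dld to the core. H3K27ac was present at 5 of these 5 genes in KO HR (37.9% of coding genes) and at 5 in WT HR (30.3%). In WT normoxia it was present at 2, Pdhb and Pdhx (22.6%). There the Pdhb peak also touched Pxk and the Pdhx peak Apip, and neither had its maximum in the subunit gene. H3K9ac was present at 5, 5 and 4 (35.9%, 36.4% and 31.9%), with Pdha1 the gene without it in WT normoxia. With the maximum required in the gene or within 1 kb, H3K27ac stood at 4 in KO HR, 4 in WT HR and 1 in WT normoxia. H3K9ac then stood at 4, 5 and 4. Pdhb had no H3K27ac in any condition by that rule, for which shares of coding genes were not computed. Pdha1, Dlat and Crat made up the 3 of 10 members with H3K27ac in WT HR and none in WT normoxia, a state found in 8.38% of coding genes, and no member showed the reverse (0.699%). The 3 WT HR peaks ranked low in a list longer than that of WT normoxia. They were also narrow, wider than or as wide as 7.0% (Pdha1), 2.5% (Dlat) and 17.6% (Crat) of the WT HR H3K27ac peaks. When both lists were cut to the 5655 strongest peaks the 3 genes had no H3K27ac in either condition. In that comparison 0 of 10 members had it in WT HR and none in WT normoxia (2.89% of coding genes). Among the 5 subunits, H3K27ac at this length stood at 2 in KO HR (20.0%), 1 in WT HR (23.2%) and 2 in WT normoxia (22.6%). Of the 1835 coding genes with H3K27ac in WT HR and none in WT normoxia in the full lists, 632 (34.4%) kept this state in the cut lists.

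Promoters of Pdha1 and Dlat are shown because their start sites carried the H3K27ac peaks listed in HR and not in normoxia. They are RefSeq GRCm38.p6 windows of 300 bases, 250 before and 50 after the start, at chrX:160138381-160138680 and chr9:50659731-50660030, both on the minus strand and written 5′ to 3′. Capitals mark, on either strand, the GC box GGGCGG, the CCAAT box CCAAT, the E-box CACGTG and the TATA box TATAAA, and no marked match overlaps another here.
Pdha1: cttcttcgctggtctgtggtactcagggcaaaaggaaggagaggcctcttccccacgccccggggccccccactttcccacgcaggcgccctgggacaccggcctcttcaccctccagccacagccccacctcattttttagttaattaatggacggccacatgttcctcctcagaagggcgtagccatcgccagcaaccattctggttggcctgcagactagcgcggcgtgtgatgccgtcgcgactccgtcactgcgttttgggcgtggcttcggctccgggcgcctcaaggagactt
Dlat: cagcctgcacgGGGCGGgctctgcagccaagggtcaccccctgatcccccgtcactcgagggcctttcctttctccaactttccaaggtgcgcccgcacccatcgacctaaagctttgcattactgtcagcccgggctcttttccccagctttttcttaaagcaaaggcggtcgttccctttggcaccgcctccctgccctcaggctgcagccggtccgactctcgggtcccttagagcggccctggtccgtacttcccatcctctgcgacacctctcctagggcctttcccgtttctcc
The Pdha1 window held none of these motifs and the Dlat window held 1 GC box. Among 17492 coding promoters of this length, 46.3% held a GC box, 39.0% a CCAAT box, 7.9% an E-box and 13.3% a TATA box. GC content was 62.0% in each, against a median of 56.3%.

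Pdha1 lies on chromosome X at 160122219 to 160138430, transcribed towards lower coordinates. Its H3K27ac peak spanned 160136375 to 160139214 (2840 bp) in KO HR and 160135961 to 160139420 (3460 bp) in WT HR, with the maxima 339 and 375 bp downstream of the start. In WT normoxia the nearest H3K27ac peak was 363 kb away and the nearest H3K9ac peak 863 kb away. The H3K27ac peak ranked 7498 of 14418 in KO HR and 7558 of 8252 in WT HR. H3K9ac was likewise listed in HR only, with peaks of 2025 bp in KO HR and 5910 bp in WT HR and none in WT normoxia, ranked 7928 of 8837 and 5901 of 7593. In KO HR the H3K9ac peak ended at 160138187, inside the gene, so it did not reach the promoter window printed above, while the other 3 Pdha1 peaks covered it whole. The WT HR H3K9ac peak of Pdha1 stayed in the list when both WT lists were cut to 6513 peaks.

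Dlat, at 50634633 to 50659780 on chromosome 9, carried H3K9ac in every condition and H3K27ac in HR. The H3K27ac peak was 2697 bp wide in KO HR (rank 10315 of 14418) and 2920 bp in WT HR (rank 7918 of 8252), with the maximum 163 and 65 bp downstream of the start. In WT normoxia the nearest H3K27ac peak lay 23.8 kb away, with its maximum in Timm8b. Its H3K9ac peak was 3007 bp wide in KO HR, 3220 bp in WT HR and 10410 bp in WT normoxia, ranked 3309, 3032 and 2223. The upstream edge was at 50660887 in KO HR and at 50660980 in WT HR and in WT normoxia. The extra length in normoxia lay inside the gene, of which the peak covered 7.6% in KO HR, 8.0% in WT HR and 36.6% in WT normoxia. Dld had the same presence pattern over the 8 lists as Dlat and Crat, with a WT HR H3K27ac peak ranked 8124 of 8252.

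Peaks of both marks reached Pdhb in every condition. The gene spans 8165991 to 8173303 on chromosome 14, and its H3K27ac peak covered 100.0% of it in KO HR, WT HR and WT normoxia, with widths of 13133, 21950 and 19230 bp. The strongest stretch of these peaks lay 1990, 2043 and 2013 bp upstream of the start, where no coding gene is annotated. H3K9ac maxima lay 187 bp downstream of the start in WT HR and 117 bp in WT normoxia, whereas in KO HR the maximum was 1993 bp upstream, next to that of H3K27ac. The H3K9ac peak was 6378 bp wide in KO HR, 6310 bp in WT HR and 19190 bp in WT normoxia. Among the 6 members with H3K9ac in both WT lists, Pdhb and Dlat had the lowest WT HR to WT normoxia width ratios (0.329 and 0.309). The median ratio over coding genes with both was 0.915. The WT normoxia H3K9ac peak also reached into the neighbouring gene Pxk, while the HR H3K9ac peaks touched Pdhb alone. The H3K27ac peaks touched Pxk in each condition.

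The regulators of the complex carried fewer acetylation peaks than its subunits. Kinases (Pdk1 to Pdk4) switch the first enzyme off and phosphatases (Pdp1 and Pdp2, with Pdpr as a regulatory subunit) switch it on. H3K27ac was present at 2 of these 7 genes in KO HR (Pdk2 and Pdp2, against 37.9% of coding genes), at 1 in WT HR (Pdk2, against 30.3%) and at 1 in WT normoxia (Pdp2, against 22.6%). H3K9ac was present at 2 in KO HR (Pdk1 and Pdk2), at 1 in WT HR (Pdk2) and at 0 in WT normoxia, against 35.9%, 36.4% and 31.9% of coding genes. An ACLY-FLAG peak was present at 3 in WT HR (Pdk2, Pdk4 and Pdp1, against 13.2%). Both carriers of pyruvate into mitochondria, Mpc1 and Mpc2, had both marks in all conditions, as did 18.5% of coding genes.

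**Figure D3:**
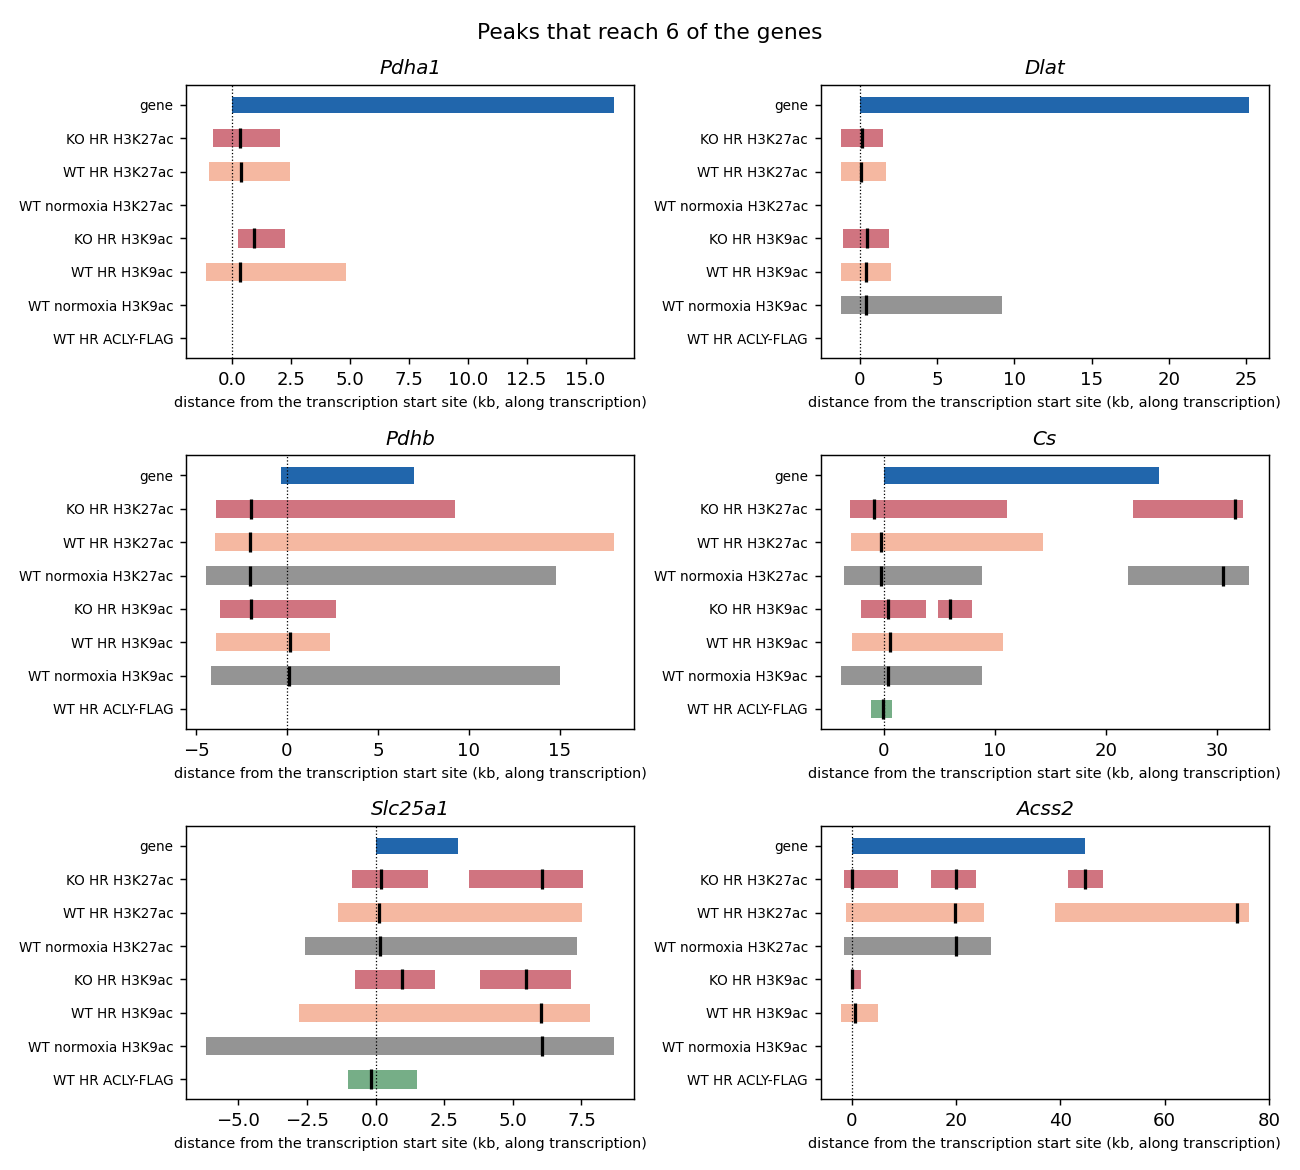
Peaks (bars) and their stretch of highest signal (black ticks) around 6 genes, by distance from the transcription start site in kb along transcription; the blue bar is the gene, rows are peak lists of 1 library each, and x axes differ between panels. Peaks at Pdha1 and Dlat lie across the start, except the Pdha1 KO HR H3K9ac peak, which lies inside the gene. Neither gene has an H3K27ac bar in WT normoxia, and the ACLY-FLAG bars at Cs and Slc25a1 lie across the start.

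The citrate genes carried the most complete set of marks. Cs encodes citrate synthase, which joins acetyl-CoA to oxaloacetate, and Slc25a1 the carrier that exports citrate to the cytosol, where ACLY cleaves it. Both had H3K27ac and H3K9ac in all 6 lists and an ACLY-FLAG peak in WT HR. ACLY-FLAG peaks stood at 3 of 10 members in WT HR (13.2% of coding genes), with Acss3 as the third, and at 17 of the 39 further genes (43.6%). In WT normoxia the FLAG list held 1 peak in the whole genome, far from any member, so an absence there says nothing about a gene. The pattern of Cs and Slc25a1 over the 8 lists was shared by 1376 coding genes (6.29%), Acly among them.

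Promoters of Slc25a1 and Cs are shown because an ACLY-FLAG peak lies across each of them. The windows are chr16:17928170-17928469 on the minus strand and chr10:128337477-128337776 on the plus strand (RefSeq GRCm38.p6), with capitals as above.
Slc25a1: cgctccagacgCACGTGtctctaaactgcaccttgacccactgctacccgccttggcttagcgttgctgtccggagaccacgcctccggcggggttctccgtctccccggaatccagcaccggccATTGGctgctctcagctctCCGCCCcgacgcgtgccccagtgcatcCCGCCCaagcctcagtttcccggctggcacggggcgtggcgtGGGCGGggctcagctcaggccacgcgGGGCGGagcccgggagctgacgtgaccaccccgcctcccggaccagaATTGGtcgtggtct
Cs: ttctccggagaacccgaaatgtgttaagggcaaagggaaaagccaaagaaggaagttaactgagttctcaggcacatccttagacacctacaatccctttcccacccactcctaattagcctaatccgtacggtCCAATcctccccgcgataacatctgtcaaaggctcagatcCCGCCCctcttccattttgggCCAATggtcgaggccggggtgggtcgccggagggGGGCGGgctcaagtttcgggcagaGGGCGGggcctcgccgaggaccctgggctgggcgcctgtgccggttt
Slc25a1 had 4 GC boxes, 2 CCAAT boxes and 1 E-box, and its GC content of 69.3% was as high as or higher than that of 87.4% of coding promoters. Cs had 3 GC boxes and 2 CCAAT boxes with 58.7% GC. No TATA box was found in any of the 7 member promoters with a sequence, and the 1 E-box was that of Slc25a1.

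At Cs (chromosome 10, 128337727 to 128362482) the ACLY-FLAG peak spanned 128336561 to 128338500 in WT HR and ranked 1125 of 3666. Its maximum lay 47 bp upstream of the start. All 1940 bp of it fell inside the H3K27ac and H3K9ac peaks of each condition. The H3K27ac peak over the start was 14082 bp wide in KO HR, 17300 bp in WT HR and 12410 bp in WT normoxia, ranked 642 of 14418, 917 of 8252 and 1400 of 5655. A further H3K27ac peak at the far end of the gene, in KO HR and WT normoxia, had its maximum in the next gene, Coq10a. H3K9ac at the start was 5796 bp wide in KO HR, where a peak of 3078 bp followed it inside the gene, against 13510 bp in WT HR and 12650 bp in WT normoxia.

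Slc25a1 is short (3009 bp, chromosome 16, 17925211 to 17928219). The WT peaks of both marks covered 100.0% of it, and H3K27ac covered 64.0% and H3K9ac 71.9% in KO HR, where each WT peak had as its counterpart a pair of peaks with a gap over the gene's distal end. In WT cells H3K27ac was strongest near the start, 124 bp downstream in WT HR and 164 bp in WT normoxia. In KO HR the H3K27ac peak over the gene had its maximum 213 bp downstream of the start and ranked 10930 of 14418, below the peak beyond the gene at rank 6350. For H3K9ac in WT cells the maximum lay beyond the gene instead, 6034 bp downstream of the start in WT HR and 6049 bp in WT normoxia, where the other KO HR peaks had their maxima as well (6052 bp for H3K27ac and 5481 bp for H3K9ac). No coding gene is annotated there. H3K9ac over the gene in KO HR peaked 954 bp downstream of the start. The ACLY-FLAG peak spanned 17926721 to 17929220, ranked 338 of 3666 and had its maximum 171 bp upstream of the start.

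The acetate genes were unlike each other. Acss2 encodes the acetyl-CoA synthetase of cytosol and nucleus, Acss1 a mitochondrial enzyme of the same reaction and Acss3 a further mitochondrial member of the family. Among all 7 genes of acetate activation and release, H3K27ac stood at 5 in KO HR, 5 in WT HR and 4 in WT normoxia. The shares of coding genes were 37.9%, 30.3% and 22.6%. H3K9ac stood at the same numbers of genes, against 35.9%, 36.4% and 31.9% of coding genes. Acss2 was marked and Acss1 and Acss3 carried no acetylation peak in any list. The Acss1 promoter, at chr2:150668191-150668490 on the minus strand, is shown because no acetylation peak lay near it, although its GC content of 64.3% lay within the 58.7% to 69.3% of the promoters above.
Acss1: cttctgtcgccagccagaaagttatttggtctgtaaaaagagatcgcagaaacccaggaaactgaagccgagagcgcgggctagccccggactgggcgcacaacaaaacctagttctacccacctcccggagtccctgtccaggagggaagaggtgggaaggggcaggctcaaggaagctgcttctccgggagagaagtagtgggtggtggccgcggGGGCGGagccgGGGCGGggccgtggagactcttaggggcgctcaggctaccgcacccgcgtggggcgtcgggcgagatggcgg
It held 2 GC boxes and 23 CpG pairs, against 13.0 CpG pairs at the median coding promoter. Of the 4457 coding promoters with at least that GC content, 48.2% overlapped an H3K27ac peak in KO HR, 40.5% in WT HR and 28.1% in WT normoxia. For H3K9ac the shares were 48.1% in KO HR, 55.4% in WT HR and 47.3% in WT normoxia.

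Acss1 (chromosome 2, 150618111 to 150668240) was 245 kb from the nearest H3K27ac peak in KO HR, 244 kb in WT HR and 244 kb in WT normoxia. H3K9ac came closer, to 8768 bp in KO HR, 6041 bp in WT HR and 1051 bp in WT normoxia. The nearest H3K9ac peak had its maximum in the neighbouring gene Apmap in each condition, and in WT normoxia it ended just outside the 1 kb window. Acss3 spans 190 kb (chromosome 10, 106933514 to 107123761), and its nearest H3K27ac peak, in Lin7a, was 186 kb away in KO HR, 185 kb in WT HR and 186 kb in WT normoxia. It had an ACLY-FLAG peak in WT HR, at 107039171 to 107039850. That peak was 680 bp wide (55 of the 3666 FLAG peaks were as narrow or narrower), ranked 3388 of 3666, and lay 269 kb from the nearest WT HR H3K27ac peak. Of the 1058 coding genes at least as long as Acss3, 202 (19.1%) held a FLAG peak, and 42.7% of all FLAG peaks overlapped neither mark in WT HR.

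Acss2 (chromosome 2, 155518043 to 155562743) had a broad H3K27ac peak from its start into the gene. It was 26520 bp wide in WT HR and 28210 bp in WT normoxia, wider than or as wide as 94.1% and 90.0% of its list. The maximum was not at the start but 19752 and 20072 bp inside the gene. In KO HR the same stretch held a pair of peaks of 10477 and 8778 bp, with maxima 43 and 20005 bp from the start. Beyond these, 1 peak at the far end reached the gene in KO HR (6865 bp) and 1 in WT HR (37180 bp), the WT HR peak with its maximum in Gss. H3K9ac was listed at the start in KO HR (2009 bp, rank 6805 of 8837) and in WT HR (7200 bp, rank 6363 of 7593) but not in WT normoxia, where the nearest peak was 18.9 kb away in Gss. Acss2 and Pdha1 were the 2 of 10 members with H3K9ac in WT HR and none in WT normoxia (5.92% of coding genes), and both were also in this state in lists of equal length (3.34%). No member had H3K9ac in WT normoxia and not in WT HR (1.45%).

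At Acat1 the WT peaks of the marks overlapped but had their maxima in different places. Of the 12 ketone body and thiolase genes with it, 9 had H3K27ac in KO HR, 8 in WT HR and 7 in WT normoxia. Among all coding genes 37.9%, 30.3% and 22.6% did. H3K9ac was at 7, 8 and 9 of the 12, against 35.9%, 36.4% and 31.9% of coding genes. Some of these genes were counted by the same peak. Acat2 was counted in KO HR (both marks) and in WT normoxia (H3K9ac) by peaks at Acat3 that covered 0 bp of Acat2. Hadha and Hadhb shared a peak in each acetylation list. Acat1 encodes the mitochondrial thiolase that splits acetoacetyl-CoA into acetyl-CoA and works in ketone body and isoleucine breakdown. The gene spans 53580522 to 53610350 on chromosome 9. Its H3K27ac peak was inside the gene in each condition, 6875 bp wide in KO HR, 6720 bp in WT HR and 17440 bp in WT normoxia, with maxima 6616, 6845 and 6630 bp from the higher-coordinate end. H3K9ac instead reached past that end, with its maximum 175 bp inside it in WT HR and 165 bp in WT normoxia. In KO HR no H3K9ac peak was listed within 41.5 kb. Acat1 was thereby the 1 of 10 members with H3K9ac in WT HR and none in KO HR (3.97% of coding genes). These WT peaks were near the bottom of their lists, at rank 7097 of 7593 in WT HR and 6267 of 6513 in WT normoxia, and lists of equal length did not hold the WT HR peak. Acat1 then had H3K27ac in WT normoxia and none in WT HR (2.26% of coding genes), and H3K9ac likewise (2.6%).

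Crat encodes carnitine acetyltransferase, which moves acetyl groups between CoA and carnitine. It lies at 30400476 to 30416017 on chromosome 2, 33 bp from Ptpa, and each Crat peak also touched Ptpa. The H3K27ac peak was 2966 bp wide in KO HR (rank 7130 of 14418) and 4330 bp in WT HR (rank 6942 of 8252), with the maximum 116 and 168 bp beyond the end of Crat, inside Ptpa. In WT normoxia the nearest H3K27ac peak was 130 kb away. H3K9ac was listed in all conditions, 3176 bp wide in KO HR, 5910 bp in WT HR and 6400 bp in WT normoxia. Its strongest stretch reached over both genes in KO HR and lay in Ptpa in WT cells, 358 bp beyond the end of Crat in WT HR and 348 bp in WT normoxia. A peak over both genes cannot be assigned to either. Of the 6 carnitine genes, Crat included, 5 had H3K27ac in KO HR, 4 in WT HR and 3 in WT normoxia. Among all coding genes 37.9%, 30.3% and 22.6% did. H3K9ac was at 5, 4 and 4 of the 6, against 35.9%, 36.4% and 31.9% of coding genes.

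Peak widths at the members mostly went with those of the whole lists. H3K9ac peaks were narrower in WT HR than in WT normoxia at 5 of the 6 members with both (62.5% of coding genes), Cs being the exception with 13510 bp in WT HR and 12650 bp in WT normoxia. For H3K27ac it was 3 of 5 by summed width (59.2%), Pdhb and Acss2 being wider. These sums include peaks with their maximum in a neighbour: without the Gss peak Acss2 was narrower in WT HR, and without the Coq10a peak Cs was wider in WT HR (17300 bp) than in WT normoxia (12410 bp). The Coq10a peak also made the Cs sum wider in KO HR than in WT HR. KO HR peaks were narrower in sum than WT HR peaks at 6 of 8 members for H3K27ac (79.4% of coding genes) and at 6 of 7 for H3K9ac (96.5%). The median KO HR to WT HR width ratio was 0.59 at members and 0.515 at all coding genes for H3K9ac, and 0.8 and 0.797 for H3K27ac.

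**Figure D4:**
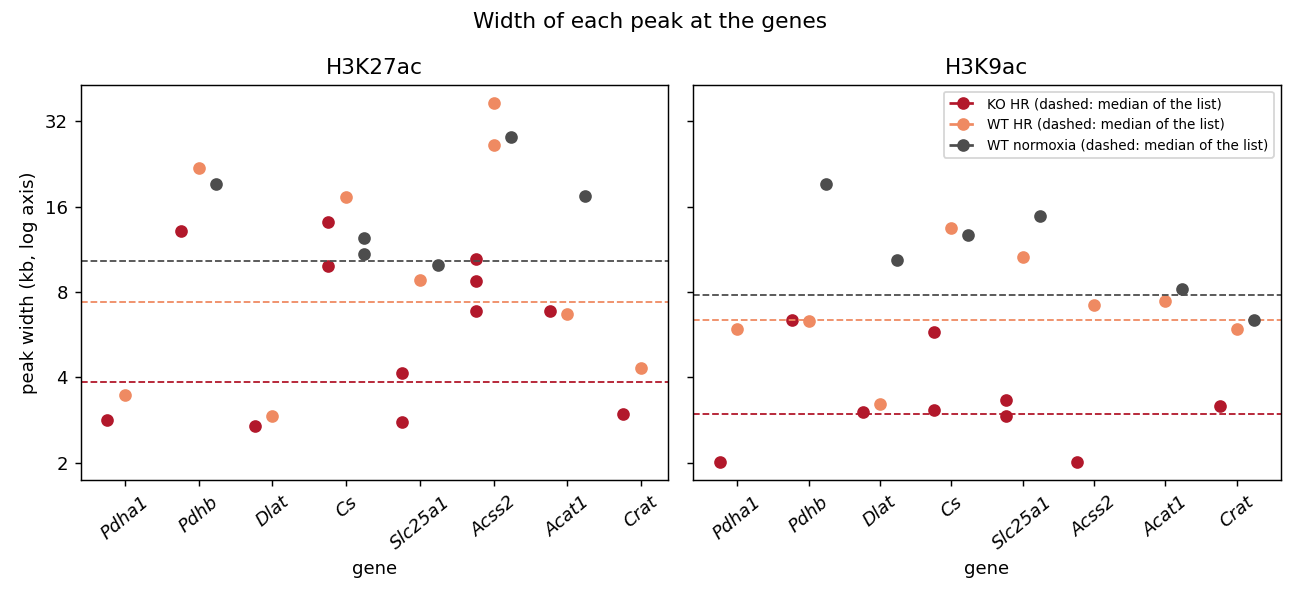
Width of each peak that reaches a gene (y axis, kb, log axis) by gene and condition, for H3K27ac (left) and H3K9ac (right); points are single peaks from 1 library, and dashed lines are the medians of the whole lists. The H3K9ac points of Pdhb and Dlat lie at 19190 and 10410 bp in WT normoxia, above their HR points, and the H3K27ac points of Pdha1, Dlat and Crat lie below the median of their list.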

How the data were processed

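The authors deposited 1 peak list per CUT&RUN sample, with the total and maximum signal of each peak and the stretch of its maximum. The scale of this signal, the aligner, the peak caller and the control are not stated in the sources at hand. The build was mm10, per the submitters' processing notes, which also name Trimmomatic and kallisto. The kallisto transcript tables were not used, since no table paired their transcripts with genes.

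Groups came from the sample titles. Peaks were joined to RefSeq coding genes of GRCm38.p6 (the assembly mm10 names), starts counted from 1, with python 3.11.15, pandas 2.3.3 and numpy 2.4.6. The overlap code was checked on simulated intervals against bedtools 2.31.1. Start sites and strand came from the RefSeq promoter table, which holds 7 of the 10 genes. The alternatives were the gene body alone, 5 kb on either side, a peak within 1000 bp of the start, 50% of the gene covered, the stronger 50% of peaks, lists of equal length, and the maximum within the gene window. The members and lists were chosen with earlier results of these data known. All members are named, and of the 39 further genes those whose state differed between conditions, apart from what is not reported here.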

Additional observations from a re-analysis of the deposited data

How the results depend on the processing

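No paired analysis was possible because no result comes from a test and each antibody and condition has 1 library. Of 152 recomputed counts, 116 stayed within 1.5 times the reported count, among them all 22 with the gene body alone. Some could not move: cutting to equal length leaves the shortest list of each mark as it was. The 1 WT normoxia ACLY-FLAG peak lies far from every member. Start-site counts cover 7 of the 10 members and 39 of the 49 acetyl-CoA genes. Shares of all coding genes were not computed for the gene body, 5 kb, 50% cover, stronger 50% and maximum rules. Counts under these rules therefore describe the listed genes alone. Requiring 50% of the gene to be covered left H3K27ac at 3 members in KO HR and 4 in WT HR, H3K9ac at 1, 1 and 2 in KO HR, WT HR and WT normoxia, and ACLY-FLAG at 0. Among the 49 acetyl-CoA genes it left 11, 16 and 16 with H3K27ac and 1, 5 and 7 with H3K9ac. Members with H3K27ac in WT HR and not in WT normoxia were then 1 (Cs), and the reverse 1 (Acat1). In WT HR and not in KO HR it was 1 (Acss2). For H3K9ac these counts were 0, 1 (Pdhb) and 0. With the stronger 50% of peaks H3K27ac stood at 4 members in WT HR, H3K9ac at 4 in KO HR and 5 in WT HR. Those in WT HR and not in WT normoxia were 0 for H3K27ac and 1 for H3K9ac, Crat rather than Acss2 or Pdha1. H3K27ac was in KO HR and not in WT HR at 2 (Acat1 and Crat). Lists of equal length gave H3K27ac at 3 members in KO HR and 4 in WT HR, and at 25 of the 49 genes in KO HR. Members in WT HR and not in WT normoxia were then 0 for H3K27ac, the reverse 1 (Acat1) for each mark, and those in WT HR and not in KO HR 1 for H3K27ac and 2 for H3K9ac. The counts of members that differ between conditions were recomputed after seeing the data. A window of 5 kb put H3K9ac at 1 member (Acss1) in WT normoxia and not in WT HR. With the maximum in the gene window, chosen after seeing the data, 1 (Slc25a1) had H3K9ac in KO HR and not in WT HR. The reverse held for 2 (Pdhb and Acat1). Near the start site that last count was 0 of 7 genes. The cause was not tested. The alternatives planned for RNA levels were not run, since the RNA was not used. Depth is unknown, so a missing peak does not show that a mark is absent.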

Other observations

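Beyond the 10 genes, a few other genes of acetyl-CoA metabolism differed in state between lists. Slc25a20, the carrier of acylcarnitines into mitochondria, had both marks in KO HR (ranks 8625 of 14418 and 6441 of 8837) and neither in WT cells. Acacb, an acetyl-CoA carboxylase, had H3K27ac in all conditions and H3K9ac in KO HR (rank 8207 of 8837). Of the 39 genes, 3 (7.69%) had H3K27ac in KO HR and none in WT HR, against 8.31% of coding genes. For H3K9ac it was 3 (7.69%), against 3.46%. In lists of equal length the Slc25a20 H3K27ac and Acacb H3K9ac peaks dropped out, while Slc25a20 kept H3K9ac in KO HR alone (2.01% of coding genes). Acot8, a peroxisomal thioesterase, and Acaa1a, a peroxisomal thiolase, had H3K9ac in all conditions and H3K27ac in KO HR and WT HR but not in WT normoxia. With Dld and Pdk2 they made up the 4 of 39 genes with H3K27ac in WT HR and none in WT normoxia (8.38% of coding genes). The WT HR H3K27ac peak at Acaa1a had its maximum in Myd88. With lists of equal length, 1 of the 39 genes, Acaa1a, had H3K27ac in WT HR and none in WT normoxia (2.89% of coding genes), and 3, Pdhx, Pdp2 and Fasn, had it in WT normoxia and none in WT HR (2.26%). Acot8 and Pdk2 also had an ACLY-FLAG peak in WT HR, ranked 758 and 317 of 3666. The lists of KO cells were made in another way than those of WT cells, and the part of this in the KO differences was not tested.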
